A study of Mus musculus with 622 samples.

Results

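The 510 coding sequences described here carried more editing in 2-cell mouse embryos when the RNA editor was tied to AGO2 than when it was not. They were chosen from 6512 coding sequences in the authors' table of editing levels by the following rule. A coding sequence was a member when its editing was above 0 in at least 12 of the 23 table columns with the AGO2 fusion and its mean there was at least 2 times its mean in the 15 columns of the control group. Of the 2068 coding sequences detected in at least 12 AGO2 fusion columns, 24.7% met the rule, which is 7.83% of all coding sequences listed. The difference between these groups therefore chose the members, and it is described below without a test.

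The study gave mouse zygotes either of a pair of microRNAs, miR-200c-3p and miR-465c-3p, by injection and followed the embryos by single-embryo RNA sequencing. A parallel experiment, Ago-REMORA, used AGO2-based RNA editing to record which transcripts AGO2 reached at the late 2-cell stage, 28 h after activation. All embryos used here are parthenotes, meaning that oocytes of superovulated FVB/NJ females aged 5 to 7 weeks were activated without sperm, in strontium chloride with EGTA and cytochalasin B, and were then injected in the cytoplasm. The 93 editing samples fall into 4 groups by title: abe (15), ago_only (23), ago_mir200 (27) and ago_mir465 (28). The titles do not spell out abe, which is read here as the editor without AGO2 and is called the editor alone. The other groups are called AGO2 alone, AGO2 with miR-200c and AGO2 with miR-465c. The mRNA comparisons use other embryos: 164 libraries of parthenotes injected with GFP as controls, with miR-200c at a low dose of about 200 molecules or at a mid dose, or with miR-465c, collected at 28 h, at 46 h (4-cell) or at 70 h (compacted morula). The amounts of the mid dose, of miR-465c at the 2-cell stage and of the microRNAs in the editing experiment are not stated. Eggs of about 5 females were pooled and distributed over all conditions on each of 3 experimental days, and because no label gives an embryo's day, differences between days and between embryos cannot be told apart. A parthenote has no paternal genome and receives no sperm RNA.

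A pair of editing samples in each of 2 groups held the same edits. In ago_only the columns of replicates 6 and 11, and in ago_mir200 those of replicates 20 and 24, were above 0 in the same rows of all 3 tables and differed there by 1 constant factor per table, from 0.879 to 1.02. No other columns of a group did. Each pair was counted as 1 sample, by its mean, in every level, SD, ratio and test below, which leaves 22 and 26 embryos in these groups and 91 in all. The rule alone was applied to the columns as deposited. With each pair counted once there too, 543 coding sequences met it, of which 502 are among the 510.

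AGO2 is the Argonaute protein that holds a microRNA and is led by it to partly complementary messenger RNAs, mainly through the seed at the start of the microRNA. Binding in 3′ UTRs is the best known route to translational repression and mRNA decay, and binding in coding sequences is also known. In the mouse the 2-cell stage is when most messengers stored in the oocyte are being degraded and the embryo's own genome is switched on, and AGO2 is loaded with maternal and early zygotic small RNAs.

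The editing experiment asks where AGO2 went when a microRNA was added, so the seeds of the added microRNAs and their matches in the members come first. The mature sequences below, from RefSeq (GRCm38.p6), carry their seed (bases 2 to 8) in capitals. They are mouse miR-200c-3p (chr6:124718324-124718346, minus strand), miR-465c-3p (chrX:66825965-66825986, minus strand) and, as a microRNA of the early embryo that was not injected, miR-294-3p (chr7:3220691-3220712, plus strand). The seeds share no 7-letter match, so each microRNA has its own target motif.
mmu-miR-200c-3p: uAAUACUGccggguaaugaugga
mmu-miR-465c-3p: gAUCAGGGccuuucuaaguaga
mmu-miR-294-3p: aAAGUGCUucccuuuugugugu

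The reverse complement of each seed was searched on the coding strand of the longest annotated coding sequence of each gene: CAGTATT for miR-200c, CCCTGAT for miR-465c and AGCACTT for miR-294. The windows below are 30 bases of mm10 coding sequence, all on the plus strand, with the match in capitals. For each injected microRNA they belong to the 3 members of highest mean editing with AGO2 alone, predicted genes passed over, whose match lay within 1 coding exon. The miR-200c matches are in Dcun1d5 (chr9:7203521-7203550), Cwc15 (chr9:14501996-14502025) and Usp28 (chr9:49009117-49009146).
Dcun1d5: ggccactcttttCAGTATTttaccagtacc
Cwc15: cagctctccaagCAGTATTcaagcagagat
Usp28: atgcaagagcttCAGTATTtatttgctctg
The miR-465c matches are in Golph3 (chr15:12321901-12321930), Nxt2 (chrX:142228350-142228379) and Oosp3 (chr19:11699416-11699445).
Golph3: aaacgcggctgaCCCTGATggaggaggtgc
Nxt2: ccatttccagccCCCTGATggccttggcag
Oosp3: tgatctcattggCCCTGATgaattattatt
A match is a string of letters and not a measured site, since the deposited values are summed over each coding sequence and do not place the edits within it.

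Editing is given in EPKM, the authors' unit, which neither the headers nor the labels spell out. Every value above 0 was a whole multiple of a step that depends on the gene and the embryo (tolerance 0.02 of a step), and for 71.8% of 6443 coding sequences the step fell with coding length, so a value behaves as a number of edits per kilobase, scaled to a total that differs between embryos. Read this way, members had a median of 54 edits summed over the 22 AGO2 alone embryos. In 286 of the 510 members the median AGO2 alone embryo held 1 to 2 edits, and 49 members had a median of at least 10. Single embryos are therefore noisy: among those 49 members the SD was 55.1% of the mean in AGO2 alone embryos at the median (range 31.9% to 79.8%) and 77.8% with the editor alone. The tables hold no mRNA level of the same embryos, so more edits per transcript and more transcripts cannot be told apart in any one embryo.

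Most members were edited at a low level and a few at a very high one. The mean EPKM of a member with AGO2 alone had a median of 0.944, beside 0.882 for the 1558 detected coding sequences that missed the fold threshold. It was under 1 in 265 members and at least 10 in 22, and the 20 highest members held 47.6% of the summed mean of the whole set. The ratio of the AGO2 alone mean to the editor alone mean had a median of 2.91 (quartiles 2.33 and 3.91). It lay from 2 to under 3 in 259 members, from 3 to under 5 in 164, from 5 to under 10 in 48, and was at least 10 in 30. In 8 members that met the rule by columns it lay from 1.85 to under 2 once the pair counted once. Over all 2068 detected coding sequences the median ratio was 1.40.

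**Figure D1:**
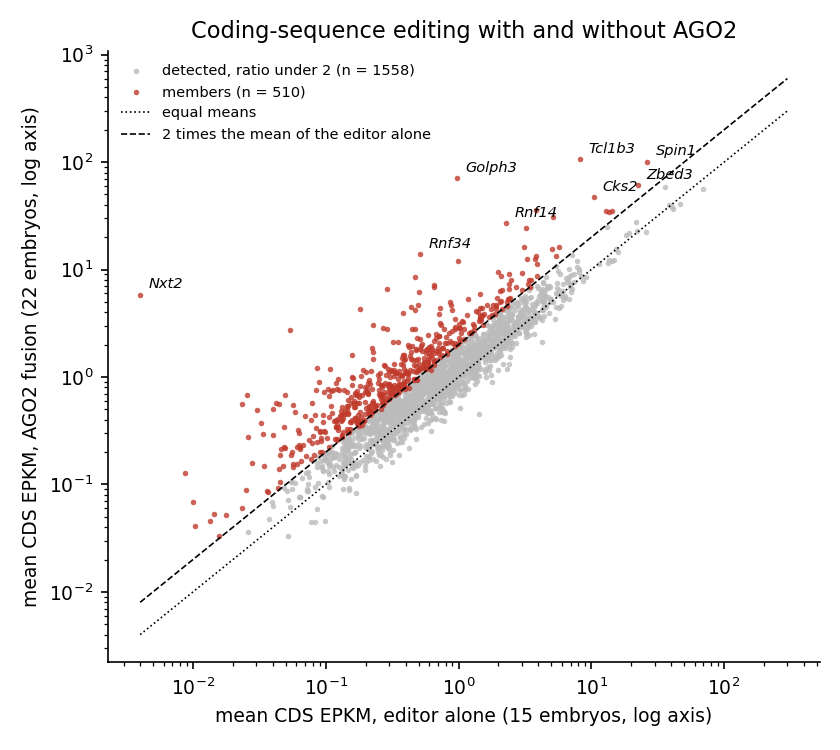
Mean CDS EPKM per coding sequence with the editor alone (x axis, 15 embryos, log scale) against AGO2 alone (y axis, 22 embryos, log scale). Red points are the 510 members and grey points the 1558 other detected coding sequences, the dashed line marks a ratio of 2 and the dotted line equal means. Most members lie close above the dashed line, while Golph3 and Rnf34 lie far above it. Nxt2, at 0 with the editor alone, is drawn at the left edge.

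The thresholds cut through a continuum, shown here by the columns the rule used. Just inside the fold threshold lay Plekhg1, with a ratio of 2.00 and EPKM means of 0.177 and 0.354, and Arf2, with a ratio of 2.01. Just outside lay Copa with 1.99 and Mlxip with 1.996. Just inside the detection threshold lay Pkig and Setd6, above 0 in 12 of 23 columns each, and just outside it Gng5 and Rab33b, above 0 in 11 with ratios of 3.64 and 2.86. In all 50 members stood at exactly 12 columns. Over the 22 embryos 225 members were above 0 in under 75% of them, and 73 were above 0 in every one.

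The member with the highest mean was Tcl1b3, on chr12:105191043-105195612, 1 of the oocyte-expressed paralogs of the Tcl1 oncogene. Its CDS EPKM was 0 at the lowest, 6.47 at the median and 40.3 at the highest with the editor alone, and 31.4, 96.8 and 221 with AGO2 alone. The groups met only where the highest editor alone embryo reached past the lowest AGO2 alone embryos. The means were 8.17 ± 9.95 (SD, n = 15) and 107 ± 51.5 (SD, n = 22), a ratio of 13.1, and the median embryo went from 3 edits to 67.5.

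Spin1, on chr13:51100880-51152546, encodes spindlin 1, a histone reader abundant in oocytes. Its EPKM was 14.6, 24.3 and 43.5 (lowest, median, highest) with the editor alone and 25.9, 86.2 and 211 with AGO2 alone. The lowest AGO2 alone embryos lay inside the editor alone range. The means were 26.4 ± 9.16 (n = 15) and 101 ± 46.0 (n = 22), a ratio of 3.82 on a high background.

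Golph3, on chr15:12321450-12351591, encodes a phosphoinositide-binding protein of the Golgi and had the largest ratio of any member above 0 with the editor alone. Its EPKM was 0, 0.717 and 3.72 with the editor alone and 30.5, 60.5 and 208 with AGO2 alone. No AGO2 alone embryo came near the highest editor alone embryo, and the ratio of the means, 0.977 ± 1.18 to 71.5 ± 41.8, was 73.1. The median embryo went from 1 edit to 94.5.

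Rnf14 and Rnf34 encode RING-type ubiquitin ligases. Rnf14 measured 0, 2.32 and 4.76 EPKM with the editor alone and 9.64, 24.8 and 50.7 with AGO2 alone, so its groups did not overlap and its ratio was 11.8. Rnf34, on chr5:122850048-122871291, measured 0, 0 and 2.27 with the editor alone and 1.74, 10.4 and 38.6 with AGO2 alone. Its groups overlapped only at their edges, and its ratio was 27.04.

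The lowest AGO2 alone embryo lay above the highest editor alone embryo in 4 members, which is 0.193% of the detected coding sequences. Besides Golph3 and Rnf14 they were Nxt2 and Fars2, named here because of this pattern. Nxt2, an RNA export factor gene on chrX:142226770-142239692, was at 0 in all 15 editor alone embryos and at 0.715, 4.88 and 16.3 with AGO2 alone. Fars2, the mitochondrial phenylalanyl-tRNA synthetase gene on chr13:36117412-36726280, stood at 0, 0 and 0.899 with the editor alone and at 1.25, 3.88 and 8.94 with AGO2 alone.

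The other high members are given by their means. Cks2, a small cyclin-dependent kinase subunit, went from 10.5 ± 4.56 to 47.4 ± 23.9 EPKM, a ratio of 4.51. Zbed3, a zinc finger protein of the oocyte cortex, went from 22.5 ± 14.97 to 61.0 ± 35.7, a ratio of 2.71 with wide overlap between embryos. Eif1, which helps the ribosome choose its start codon, went from 3.23 ± 1.68 to 24.5 ± 11.2. Its ratio was 7.58. Ptp4a2, a phosphatase, Khdc1b, Dut (the dUTPase), Tesc (a calcium-binding protein), Cnn3 (a calponin), Naa50 (an acetyltransferase) and Bcl2l10 (an oocyte member of the Bcl-2 family) had ratios from 2.47 to 5.25.

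Large ratios at low levels rest on few edits. Rragc, a Rag GTPase of amino acid sensing by mTORC1, had a ratio of 51.1, with a mean of 0.0534 EPKM in the editor alone group and 2.73 with AGO2 alone. It was above 0 in 2 of 15 and 19 of 22 embryos. Msl2 (ratio 26.7), a ubiquitin ligase of the MSL complex, and Mmp2 (ratio 24.2), a matrix metalloproteinase, had AGO2 alone means of 0.681 and 0.565 EPKM. The lowest AGO2 alone embryo of Rragc, Msl2 and Mmp2 was at 0, so their groups overlapped.

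**Figure D2:**
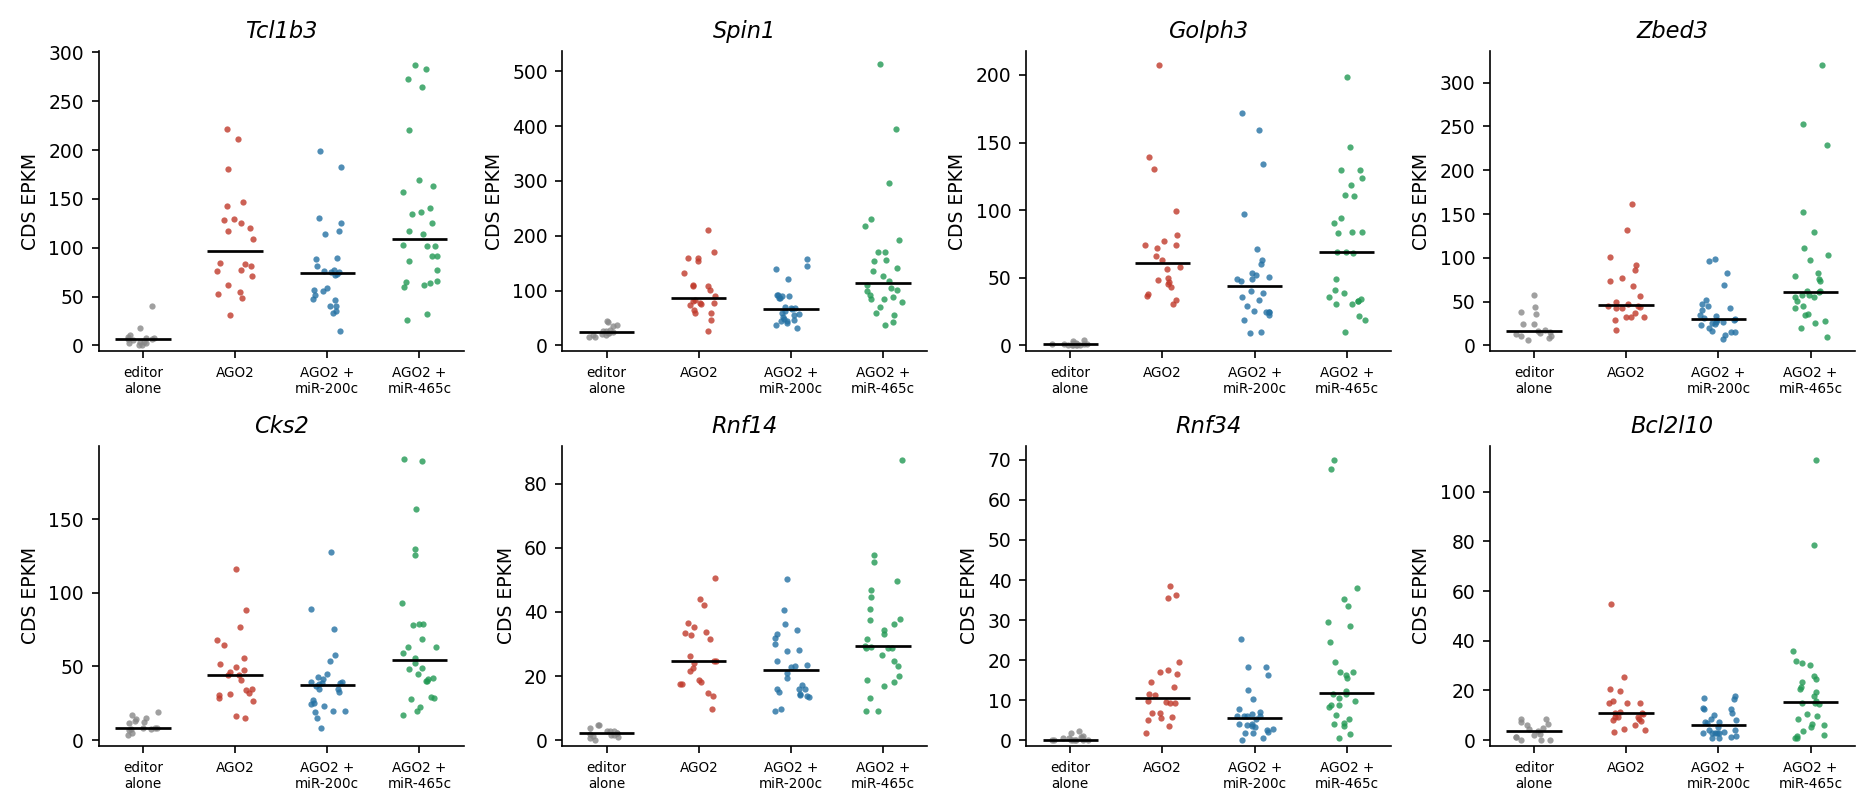
CDS EPKM (y axis, linear from 0) of 8 of the 20 highest members in each of the 91 embryos, by group (15, 22, 26 and 28 embryos), with a black line at the group median. The editor alone embryos of Golph3 lie at or under 3.72 while every AGO2 alone embryo is at or above 30.5. In Spin1 and Zbed3 the editor alone embryos overlap the lowest AGO2 alone embryos.

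Genes stored in the oocyte were looked at first. Of the maternal oocyte transcripts listed for this report, 12 of the 25 detected coding sequences (48.0%) were members, against 24.7% of all detected coding sequences. They were Tcl1b3, Spin1, Tcl1b1, Tcl1b4, Tcl1b2, Bcl2l10, E330034G19Rik, Ube2d3, Oosp3, Oas1h, Plat and Nlrp9a. All 5 listed genes of the Tcl1 family were members, with mean EPKM going from 14.2 to 35.1 in Tcl1b1 (ratio 2.47), 5.07 to 15.6 in Tcl1b2 (3.08), 5.12 to 31.1 in Tcl1b4 (6.08) and 3.86 to 35.8 in Tcl1b5 (9.28). These paralogs are near copies in 1 cluster, and how reads shared between them were counted is not given in the sources used here, so the split between them is uncertain. The maternal list was not uniform: Omt2b, Dppa3, Btg4, Gdf9, Nlrp14, Nlrp5 and Zp3 were detected and stayed under the ratio of 2.

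The list of genes switched on at zygotic genome activation had 1 member, Myc, of 12 detected, with mean EPKM of 0.166 and 0.521. The microRNA silencing machinery had 2 of 13. Dcp2, the catalytic subunit of mRNA decapping, went from 0.707 ± 0.624 to 3.83 ± 2.30 EPKM (ratio 5.41), and Pan2, the deadenylase subunit, went from 0.146 to 0.608 (ratio 4.15), whereas Tnrc6b, Tnrc6c, Drosha, Ddx6 and Xrn1 were detected and were no members. Ago2 itself is not analysed here.

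Among housekeeping lists, members numbered 1 of 16 translation factors (Eif1), 3 of 28 ribosomal proteins (Rps25, Rpsa and Rpl18, with ratios of 2.23, 2.11 and 2.00), 3 of 19 RNA-binding proteins (Fxr2, Hnrnph1 and Cpeb4) and 1 of 10 chaperones (Bag3). They numbered 1 of 20 cell cycle genes (Cdc25b), 0 of 7 cytoskeletal genes and 4 of 22 chromatin regulators. The chromatin members were Suz12 of Polycomb repressive complex 2, the methyltransferase cofactor Dnmt3l and the histone demethylases Kdm1b and Kdm4b. Of the published miR-200 family targets, 4 of 11 detected were members in embryos that received no miR-200c: Suz12, Prkaca (ratio 9.07), Wasf3 (2.97) and Ptpn13 (3.64). These lists describe the members and were chosen with earlier results of these data known.

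The sequences edited most without AGO2 were not members. With the editor alone the highest means belonged to mt-Cytb (68.9 EPKM), Gm10801 (46.2), mt-Co1 (41.3) and mt-Nd1 (40.6), all of them mitochondrial apart from Gm10801. With AGO2 alone the same 4 had means of 55.99, 40.97, 36.3 and 38.1, ratios of 0.812 to 0.939.

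Each embryo was then summed over the 510 members. The summed member EPKM was 278, 407 and 584 (lowest, median, highest) with the editor alone and 847, 1481 and 2289 with AGO2 alone, so no embryo of 1 group reached the other. As a share of all CDS EPKM the members made up 8.93%, 11.8% and 18.7% with the editor alone and 22.6%, 30.9% and 40.5% with AGO2 alone. These sums follow from the rule. The coding sequences outside the set had a median summed EPKM of 2690 with the editor alone and 3189 with AGO2 alone, so the remaining coding sequences were also higher with AGO2 alone. The authors' implied total per embryo, which sets how small a value can be seen, had medians of 1481861 and 1949418 in these groups. The part of that total in the detection of low members was not tested.

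The members were also edited in the embryos that had AGO2 and an added microRNA, which did not choose the set. The summed member EPKM was 744, 1071 and 2178 (lowest, median, highest) with miR-200c and 724, 1647 and 4486 with miR-465c. Every one of these embryos lay above the highest editor alone embryo, from the group that the rule had selected to be low. Outside the set the lowest summed EPKM was 2356 with miR-200c and 2649 with miR-465c, under the highest editor alone embryo at 3078. The members' share of CDS EPKM had medians of 25.8% and 33.1%. Both groups are set against the same editor alone embryos that the rule used, so the sums, shares and following ratios are a description. Of the 509 members above 0 with the editor alone, the mean was at least 2 times the editor alone mean in 323 (63.5%) with miR-200c, in 412 (80.9%) with miR-465c and in 297 (58.3%) with both. Of the 1558 other detected coding sequences these counts were 65 (4.17%), 164 (10.5%) and 27 (1.73%). Set against AGO2 alone, the group the rule selected to be high, the mean was lower with miR-200c in 432 members (84.7%) and higher with miR-465c in 281 (55.1%). Of the 1558 others, not selected to be high, these counts were 874 (56.1%) and 833 (53.5%).

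**Figure D3:**
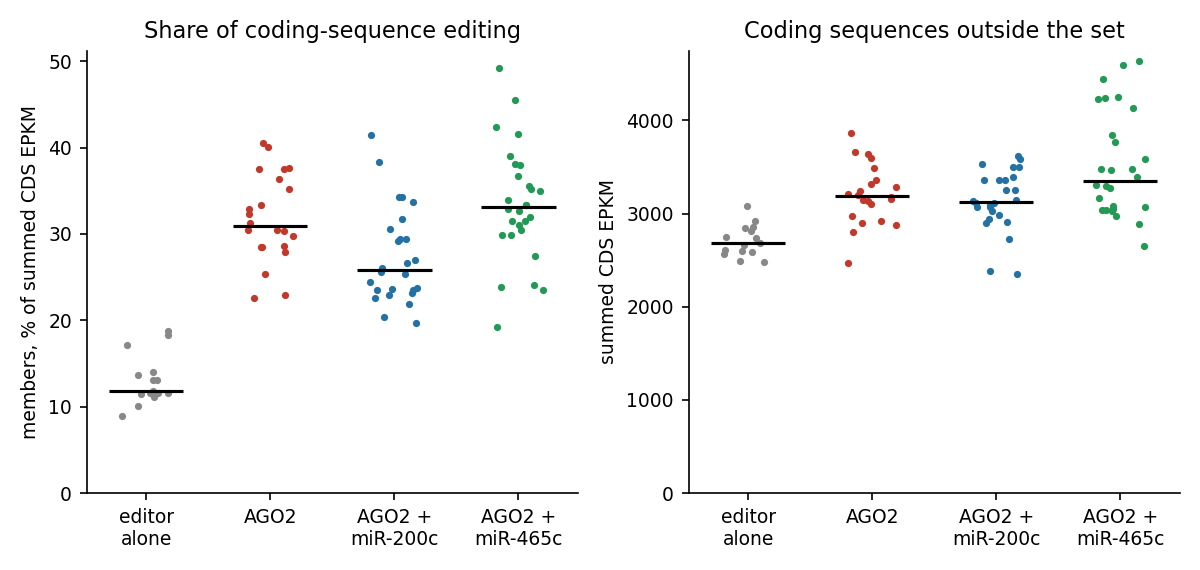
Left, the share of each embryo's summed CDS EPKM that lies in the 510 members, in percent. Right, the summed CDS EPKM of the coding sequences outside the set. Each point is 1 embryo, the groups hold 15, 22, 26 and 28 embryos, black lines are medians and both axes start at 0. The medians on the left are 11.8%, 30.9%, 25.8% and 33.1%, and on the right 2690, 3189, 3127 and 3351.

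The 3′ UTRs of the same genes were compared next. Of the 510 members 501 were listed in the 3′ UTR table, 319 were above 0 in at least 12 of the 23 AGO2 alone columns, and 213 of these (66.8%) also met the fold threshold of 2 there. Over all detected 3′ UTRs 39.4% met it, and among genes whose coding sequence was detected without being a member 32.1% did (268 of 835). The median 3′ UTR ratio was 2.64 in the detected members, 1.55 in those other genes and 1.70 over all. The overlap is 41.8% of the 510 members and 32.9% of the 647 3′ UTRs that met the rule, so most members and most such 3′ UTRs are outside it. The same embryos gave both tables, so the match between them is a description.

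Members divided by where the ratio was larger. In 122 of the 319 the 3′ UTR ratio exceeded the coding sequence ratio, and in 241 of the 501 the mean EPKM with AGO2 alone was higher in the 3′ UTR. The rule chose members for a high ratio in the coding sequence and not in the 3′ UTR, so these counts follow in part from it. Over all detected regions the median ratio was 1.70 in 3′ UTRs and 1.40 in coding sequences. Fars2 had the highest 3′ UTR ratio, 38.5, with EPKM of 0, 0 and 8.23 (lowest, median, highest) with the editor alone and 6.80, 48.7 and 102 with AGO2 alone. Only the highest editor alone embryo reached into the AGO2 alone range. Its coding sequence mean with AGO2 alone, 4.30, was far below its 3′ UTR mean of 54.6 ± 30.9.

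Noct, which encodes the NADPH phosphatase nocturnin, stood at the edge of the set by its coding sequence, with a ratio of 2.03. Its 3′ UTR measured 0, 1.07 and 5.09 EPKM with the editor alone and 14.2, 40.95 and 103 with AGO2 alone, without overlap, a ratio of 31.03. Golph3 was high in both parts, with a 3′ UTR ratio of 25.96 and 3′ UTR means of 0.934 ± 1.38 and 24.2 ± 14.6. Tmcc3 (25.9) and Nedd4l (24.7), a ubiquitin ligase gene, completed the 5 highest, from 3′ UTR means of 0.177 to 4.59 and 0.0128 to 0.317 EPKM.

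Other members had their ratio in the coding sequence alone. In 11 of the 319 the 3′ UTR mean was lower with AGO2 alone than with the editor alone. The lowest 3′ UTR ratios were those of Sec23ip (0.593, means 1.23 and 0.727 EPKM), Wrap73 (0.698, means 11.7 and 8.16), Ap4e1 (0.760), Rad1 (0.783) and Oosp3 (0.856, means 4.196 and 3.59). In Sec23ip and Wrap73 the groups overlapped over nearly their whole range. Tcl1b3 had a coding sequence ratio of 13.1 and a 3′ UTR ratio of 3.05, and Eif1 had 7.58 and 1.81, while Spin1 had 3.82 and 6.01, Cks2 had 4.51 and 16.4 and Rnf14 had 11.8 and 16.9. Across 318 members the 2 ratios had a Spearman rho of 0.23, over genes that share embryos and are not independent.

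**Figure D4:**
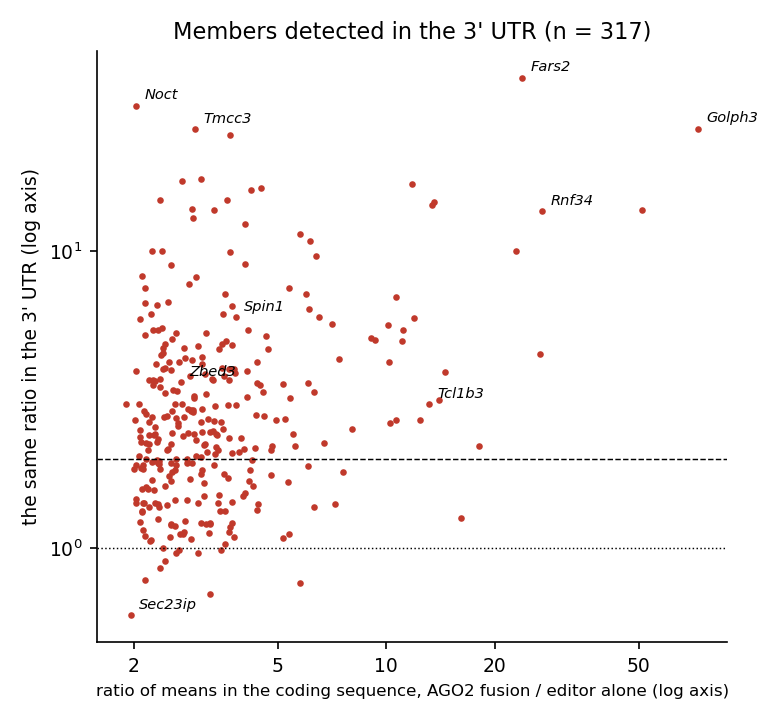
Ratio of mean EPKM, AGO2 alone to editor alone, in the coding sequence (x axis, log scale) and in the 3′ UTR (y axis, log scale) for the 317 members detected in the 3′ UTR with a ratio above 0 in both. The dashed line marks a ratio of 2 and the dotted line 1. Golph3 and Fars2 are high on both axes, Noct is high only in the 3′ UTR and Tcl1b3 is higher in the coding sequence.

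In introns few members could be seen. Of 491 members listed there 74 were detected in at least 12 AGO2 alone columns and 22 met the fold threshold (29.7%), against 11.7% of all detected introns. The median intron ratio of the detected members was 1.24, and that of all detected introns was 1.01.

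The members were compared with other detected coding sequences for features the rule does not name. EPKM is scaled by coding length and detection needs edits, so length and mRNA level are not independent of the rule. Their coding sequences were shorter, with a median of 1316 bases (quartiles 764 and 2142) against 1575, and their 3′ UTRs were longer, with a median of 972 bases against 773. The GC content was alike, at medians of 51.1% and 51.2%. The mRNA level in control 2-cell parthenotes, in CPM per kilobase (CPM are counts scaled to the library total), was also alike at medians of 31.8 and 32.5, while all listed coding sequences had a median of 6.18. These are medians over genes and were not tested.

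Editing followed the mRNA level in part. Across 498 members the Spearman rho between mRNA per kilobase and mean CDS EPKM was 0.72 with AGO2 alone and 0.72 with the editor alone, and it was 0.76 with AGO2 alone across 1508 other detected coding sequences. Zbed3 and Spin1 ranked 2 and 3 among the members by mRNA per kilobase and carried 0.0128 and 0.0432 EPKM per CPM per kilobase. Golph3 ranked 97 and carried 0.774, and Rnf34 ranked 279 and carried 0.499. Tcl1b3 lay between, at rank 9 with 0.119. The mRNA levels come from other embryos than the editing.

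The seed matches were counted in the same way. CAGTATT, the miR-200c match, was in 62 members (12.2% of the 508 with a coding sequence), in 12.4% of other detected coding sequences and in 8.20% of the 21875 annotated coding sequences. CCCTGAT, the miR-465c match, was in 68 members (13.4%), against 15.4% and 12.2%. AGCACTT, the miR-294 match, was in 61 members (12.0%), against 15.5% and 11.1%. These shares are per gene, and the members' coding sequences were shorter. Per kilobase of coding sequence, members held 0.0729 miR-200c, 0.0848 miR-465c and 0.0870 miR-294 matches. Other detected coding sequences held 0.0653, 0.0830 and 0.0845. The members with the windows printed above are given by mean EPKM, first with miR-200c and then with miR-465c (SD, n = 26 and 28). Of those with a miR-200c match, Dcun1d5 had 3.84 ± 3.04 and 4.30 ± 3.44, Cwc15 had 4.77 ± 2.82 and 6.12 ± 3.72, and Usp28 had 4.64 ± 3.08 and 6.29 ± 4.58. Of those with a miR-465c match, Golph3 had 53.6 ± 42.6 and 74.5 ± 46.5, Nxt2 had 3.91 ± 2.83 and 7.96 ± 8.51, and Oosp3 had 3.41 ± 3.37 and 5.91 ± 6.003. All 6 means were higher with miR-465c, whichever match the gene held, and none of the 6 passed the test below. Noct, which also holds a miR-465c match, went the other way, with 4.63 ± 2.28 and 2.87 ± 2.19 and a log2 difference of 0.64 ± 0.21 (limma adjusted p = 0.153).

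AGO2 with miR-200c and AGO2 with miR-465c were compared by test, since neither group chose the set. This contrast asks whether the added microRNA moved editing on the members. In limma on log2(EPKM + 1), with Benjamini-Hochberg adjustment over all 3205 coding sequences tested, 17 (0.53%) passed an adjusted p of 0.05, all lower with miR-200c. All 510 members were tested, and 10 fell and none rose. At an unadjusted p under 0.05 there were 114 members, 6 of them positive, and 359 coding sequences in all, 70 of them positive. The median log2 difference was -0.14 over the members and -0.04 over all tested. With the repeated columns kept apart, limma called 22 coding sequences and 12 members, the 10 among them.

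The 5 largest falls apart from a predicted gene were in Ift43, Rnf34, Zbed3, Eef2k and Dcp2. Ift43, an intraflagellar transport gene, measured 0, 2.67 and 15.98 EPKM (lowest, median, highest) with miR-200c and 0, 8.95 and 81.1 with miR-465c. The log2 difference was -1.38 ± 0.33 (SE, limma adjusted p = 0.0207), and the groups overlapped. Rnf34 measured 0, 5.64 and 25.2 against 0.513, 11.9 and 70.1, a log2 difference of -1.16 ± 0.29 (limma adjusted p = 0.0301).

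Zbed3 measured 7.01, 29.5 and 99.1 with miR-200c and 9.63, 61.2 and 321 with miR-465c, a difference of -1.04 ± 0.25 (limma adjusted p = 0.0207). The medians stood apart and the ranges overlapped. Eef2k, the kinase that slows translation elongation, measured 0, 0.853 and 2.92 against 0.271, 2.23 and 9.92, a difference of -0.90 ± 0.19 (limma adjusted p = 0.00827). For Eef2k the medians with the editor alone and with AGO2 alone were 0.784 and 2.17, so its miR-200c median lay near the former. Other members that fell lay between the corresponding medians. Spin1 had 24.3 and 86.2, with 66.8 for miR-200c, and Rnf34 had 0 and 10.4, with 5.64 for miR-200c. The miR-465c median lay above the AGO2 alone median in every member that passed, at 114 in Spin1, 11.9 in Rnf34 and 2.23 in Eef2k. A fall here means lower than with miR-465c, and which of the 2 groups moved was not tested. The editor alone and AGO2 alone groups are those the rule compared. Dcp2 measured 0, 2.19 and 8.94 against 0, 5.02 and 18.9, a difference of -0.87 ± 0.22 (limma adjusted p = 0.0301).

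The other members that fell were Spin1, Riok1, Oog1, Tcl1b1 and Gm13023, with log2 differences from -0.67 to -0.89. Spin1 measured 31.2, 66.8 and 157 EPKM with miR-200c and 37.02, 114 and 513 with miR-465c, with overlap (limma adjusted p = 0.0207). Members with a miR-200c match had a median difference of -0.06 (62 members) and those without it -0.15 (446). Members with a miR-465c match had -0.09 (68) and those without it -0.15 (440). Other detected coding sequences had -0.01 with a match and -0.02 without it, for either microRNA. These differences between sets with and without a match were not tested.

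The number of calls changed when embryos were left out. The 3 miR-465c embryos with the highest summed member EPKM, replicates 16, 1 and 17 at 4486, 3537 and 3123, carry many of the highest values. They were picked as the highest of the group that was higher, so leaving them out narrows the difference. No other embryos were left out. Without all 3 of them 0 members passed by limma, with 82 members at an unadjusted p under 0.05, and without 1 of them 4, 1 and 7 passed, in the order just given. With each embryo scaled to the same total EPKM, 0 members passed by limma, with 57 at an unadjusted p under 0.05, and the median difference over the members was -0.05, while edgeR on the recovered edits called 42, all lower.

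In 3′ UTRs the same contrast tested 426 members, of which 4 passed, beside 0.327% of the 2753 tested, and all 4 fell. At an unadjusted p under 0.05 there were 71 members and 297 3′ UTRs in all. The median difference was again -0.14 over the members and -0.03 over all. Rbm38, an RNA-binding protein gene, measured 6.17, 14.8 and 53.5 EPKM with miR-200c and 11.3, 32.05 and 110 with miR-465c, a log2 difference of -0.97 ± 0.20 (limma adjusted p = 0.00914). The other falls were Eif1b (-1.46 ± 0.37), Tm2d3 (-1.07 ± 0.26) and Cyb5b (-0.68 ± 0.17), each with a limma adjusted p of 0.0480. In each of these 4 genes the groups overlapped, and none of them was among the 10 members whose coding sequence passed. With the repeated columns kept apart 6 members passed, 5 lower and 1 higher. Without the 3 miR-465c embryos named above 0 members passed in the 3′ UTR by limma, with 59 at an unadjusted p under 0.05, and without 1 of them 1 member passed each time.

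The mRNA of the members was measured in other 2-cell parthenotes injected with the same microRNAs. At the low dose of miR-200c (26 embryos against 28 controls) edgeR's quasi-likelihood test called 0 of 498 members, with 0.0% called of 11202 genes, and 8 members had an unadjusted p under 0.05 (135 genes in all). DESeq2 also called 0. The smallest p-values were those of Dcun1d5 (log2 difference 0.54 ± 0.19), Fgfr1op2 (0.42 ± 0.17) and Ubfd1 (0.39 ± 0.17), each with an edgeR adjusted p of 1.00. Dcun1d5, whose miR-200c match is printed above, was at 44.9, 167 and 386 CPM (lowest, median, highest) in controls and at 75.6, 253 and 568 at the low dose, with wide overlap.

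At the mid dose (23 embryos) edgeR again called 0 members, with 0.0% called of all genes, but 133 members and 1853 genes had an unadjusted p under 0.05. The median log2 difference was 0.21 over the members and 0.04 over all genes. Among the gene lists, the maternal list as a whole had a median of 0.34 and the ribosomal proteins -0.68. DESeq2 called 21 members, 18 higher and 3 lower, beside 290 of all genes (2.59%), 101 higher and 189 lower. With replicate number as a block in the fit, edgeR called 43 members, 39 higher and 4 lower. It then called 521 of all genes, 244 higher and 277 lower. Bpgm, the bisphosphoglycerate mutase gene, was at 263, 550 and 1072 CPM in controls and at 305, 956 and 3658 at the mid dose, a log2 difference of 0.86 ± 0.20 (edgeR adjusted p = 0.142). Gtpbp1 had 0.81 ± 0.19 and Cops8, a COP9 signalosome subunit gene, 0.75 ± 0.21, with edgeR adjusted p-values of 0.148 and 0.166. The published miR-200 targets among the members, Suz12, Prkaca, Wasf3 and Ptpn13, had log2 differences of -0.01 ± 0.16, 0.04 ± 0.20, 0.39 ± 0.27 and -0.07 ± 0.23.

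After miR-465c (21 embryos against 22 controls) edgeR called 0 of 496 members, with 0.0% called of 9682 genes, and 6 members had an unadjusted p under 0.05 (94 genes in all). DESeq2 called 0. The smallest p-values were those of Rpp25 (-0.76 ± 0.23), Rpl18 (0.70 ± 0.23) and Ascc1 (-1.08 ± 0.42). Golph3 differed by 0.02 ± 0.26 and Spin1 by 0.06 ± 0.22.

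The mRNA of the members was then followed past the 2-cell stage, in control embryos that the rule did not use. Between control parthenotes of the 2-cell (n = 28) and 4-cell (n = 24) stage, 328 of the 498 members tested (65.9%) fell and 92 (18.5%) rose by edgeR's quasi-likelihood test. Over all 11570 genes 73.2% passed, 37.4% lower and 35.8% higher, and of 1503 other detected coding sequences 35.1% fell and 41.6% rose. The median log2 change was -1.23 in the members, 0.14 in the other detected coding sequences and -0.04 over all genes. With DESeq2's size factors in edgeR the median of all genes moved to -0.31 and that of the members to -1.53, so the members stayed well below all genes. CPM are shares of each embryo's RNA, and in whole embryos fewer transcripts per cell and a smaller part of the total cannot be told apart.

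The share that fell was highest at the highest editing ratios. Of the members with a ratio under 3, 161 of 261 fell (61.7%), with a median log2 change of -1.08. Of those with a ratio from 3 to under 5, 104 of 159 fell (65.4%), with a median of -1.03. Of those with a ratio of 5 or more, 62 of 77 fell (80.5%), with a median of -1.86. These bands are not set against each other by a test.

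**Figure D5:**
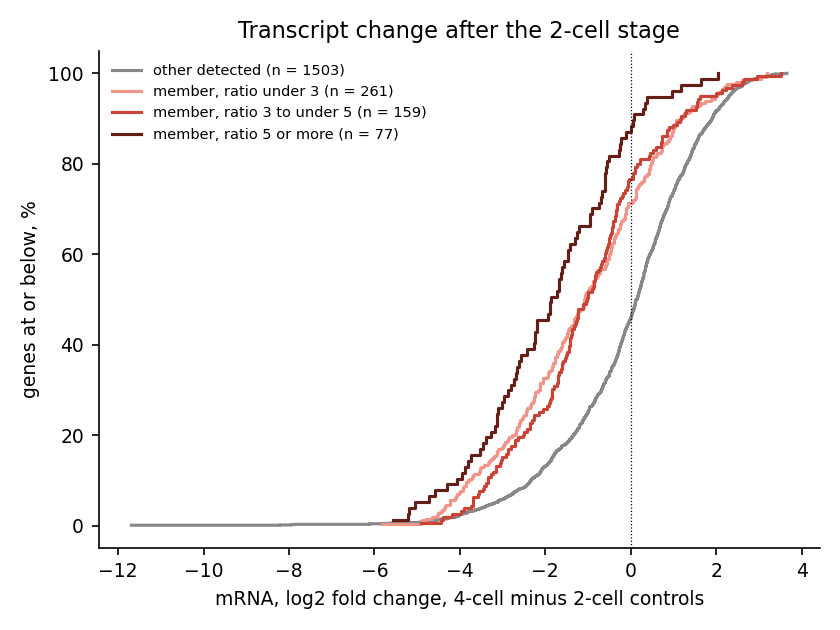
Cumulative share of genes (y axis, percent) at or below each log2 change of mRNA from 2-cell to 4-cell control parthenotes (x axis). Lines show the other detected coding sequences (1503) and the members in 3 bands of editing ratio (261, 159 and 77). The line of the highest band lies farthest left, with a median of -1.86, and the grey line crosses 50% near 0.14.

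Of the 20 members edited most, 18 fell and none rose, beside 65.9% of all members and 37.4% of all genes that fell. They were ranked by EPKM, which followed the 2-cell mRNA level from which this change is measured. Other coding sequences with as much editing were not counted in this way. Tcl1b3 was at 291, 885 and 1944 CPM (lowest, median, highest) at the 2-cell stage and at 1.83, 21.6 and 94.7 at the 4-cell stage, without overlap, a log2 change of -5.06 ± 0.35 (edgeR adjusted p = 4.43e-22). The largest falls were those of Ccnjl, a cyclin J-like gene (-5.82 ± 0.59), Piwil1, the PIWI protein gene (-5.56 ± 0.71), Tcl1b4 (-5.21 ± 0.36), Tcl1b5 (-5.20 ± 0.34) and Tcl1b3. Golph3 was at 11.2, 173 and 813 CPM and then at 8.39, 27.7 and 133, with overlap, a change of -2.88 ± 0.29 (edgeR adjusted p = 3.87e-14).

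Spin1 fell by 3.68 on the log2 scale, from a median of 10412 to 501 CPM, and Zbed3 fell by 4.54. Fars2, at 20.1, 72.6 and 140 CPM at the 2-cell stage and 0.458, 6.29 and 24.5 at the 4-cell stage, changed by -3.12 ± 0.28. The members that did not pass among the 20 were Eif1 (-0.22 ± 0.11, edgeR adjusted p = 0.0589) and Rnf34 (-0.10 ± 0.24, edgeR adjusted p = 0.713), whose ratios of editing were 7.58 and 27.04. Rnf34 was at a median of 105 CPM at the 2-cell stage and 107 at the 4-cell stage.

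By gene list, all 12 maternal members fell, within a list in which 52 of 59 genes fell and 5 rose. In the list of genome activation genes 28 of 44 also fell and 14 rose, and its member Myc was among those that rose. Dcp2 (-3.11 ± 0.26) and Pan2 (-1.34 ± 0.23) of the silencing machinery fell, beside 18 of 34 genes of that list that fell and 9 that rose. The 3 ribosomal members rose with all 80 ribosomal protein genes. Among chromatin regulators Suz12, Dnmt3l and Kdm1b fell and Kdm4b rose, beside 19 of 52 genes of that list that fell and 18 that rose. Among RNA-binding proteins Fxr2 and Cpeb4 fell and Hnrnph1 rose, in a list with 14 of 63 genes lower and 35 higher. Of the 4 miR-200 targets 3 fell while Ptpn13 rose, and of the 36 such targets tested 17 fell and 8 rose.

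The 92 members that rose were led by Myc, the transcription factor gene (3.52 ± 0.44), Il11ra1 (3.19 ± 0.72), Lpcat3, a phospholipid acyltransferase gene (3.17 ± 0.30), Rpl18 (3.06 ± 0.19) and Timm22, a mitochondrial import gene (2.97 ± 0.33). Rpl18 was at 20.6, 67.8 and 247 CPM at the 2-cell stage and at 310, 652 and 1365 at the 4-cell stage, without overlap (edgeR adjusted p = 1.79e-24). Lpcat3 was at 0, 26.2 and 74.9 and then at 64.3, 257 and 446, with overlap at the edges only.

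From the 4-cell stage to the compacted morula (n = 20), of the 498 members, 203 (40.8%) fell and 123 (24.7%) rose, beside 31.5% and 26.4% of all genes, of which 57.9% passed in all. Of the other detected coding sequences 46.6% fell and 22.4% rose. The median log2 change was -0.24 in the members, -0.40 in the other detected coding sequences and -0.07 over all genes. The largest falls were those of Mfap2, a microfibril protein gene (-7.16 ± 0.52), Tcl1b5 (-7.08 ± 0.51), Hmgcll1 (-6.95 ± 0.60), Tcl1b1 (-6.93 ± 0.50) and Tcl1b2 (-6.81 ± 0.52). All 5 had a median of 0 CPM in morulae, against 17.9 at the 4-cell stage in Tcl1b5, so the size of these changes depends on the prior count. The rises were led by Prep, a prolyl peptidase gene (3.85 ± 0.34), L1td1 (3.84 ± 0.39), Elovl7 (3.29 ± 0.52), Dab2 (3.25 ± 0.40) and Insig1, a regulator of sterol synthesis (3.11 ± 0.22). Prep was at 0, 33.1 and 84.8 CPM at the 4-cell stage and at 147, 486 and 709 in morulae, without overlap (edgeR adjusted p = 2.54e-16).

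The count libraries held from 404353 to 5746247 expected counts with a median of 2764110.5, and 499 of the 510 members were listed in them. In 2-cell controls all 10 marker genes of the 2-cell parthenote had a median above 1 CPM, with a summed level of 3542 to 9015 CPM. Of 12 cumulus and granulosa markers 2 did, and Amh, Inhba, Inha, Fst and Fshr were at 0 in every library. The summed level of the 12 ran from 20.3 to 330 CPM with a median of 139, so every library held some counts of these genes. A median above 1 CPM was reached by 0 of 6 sperm and 0 of 3 oviduct markers.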

How the data were processed

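Editing was read from 3 tables (coding sequences, 3′ UTRs, introns) that the authors deposited in EPKM, a normalised signal whose steps and totals are not given in the sources used here. Of their columns, 3 per table matched no labelled sample and were not used. Of the 93 labelled columns, 2 pairs held the same edits at another scale, and each was averaged into 1 embryo, except where the rule chose the members. The share of zeros was 67.4%, 71.1% and 83.9%. The mRNA tables hold expected counts that the authors obtained with RSEM (mm10), per the labels' protocols; they were rounded here. Tools listed in the submitters' processing notes, with no role, are STAR, featureCounts, FastQC, cutadapt, DESeq2 1.48.2 and R 4.5.1. The implied EPKM total per embryo ran from 581782 to 2874086 (median 1737826), and intervals and SDs cover the spread between embryos.

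The members and gene lists were chosen with earlier results of these data known. EPKM was tested with limma 3.58.1 (trend, robust) on log2(EPKM + 1), which understates changes of low genes, over regions above 0 in at least 20% of 91 embryos, with all 4 groups in the fit. Counts were tested with edgeR 4.0.16 (quasi-likelihood, TMM, filterByExpr) and DESeq2 1.42.0 as an alternative. Benjamini-Hochberg adjustment ran over all features tested, at a threshold of 0.05. Scripts were tested on simulated data. Coding sequences are the longest per gene in GENCODE M21 on mm10. The genes named are the 20 highest members (1 of them is not reported here), the 5 largest ratios, those at each threshold, the 5 highest and 5 lowest 3′ UTR ratios, up to 6 members a list, and up to 5 rises and 5 falls a comparison (all, and the 3 smallest p, where under 6 passed). Further members that fell, the Tcl1 family, Noct among seed matches, seed windows and members without overlap were named after their values were seen. Alternatives changed pseudocount, filter, scaling, groups in the fit, replicate block, repeated columns and test. Nothing in the labels says that equal replicate numbers mark a shared day or animal.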

Additional observations from a re-analysis of the deposited data

How the results depend on the processing

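The size of the set depends on its thresholds. It was 238 at a ratio of 3 and 922 at 1.5, 271 and 901 at detection in 75% and 25% of embryos, and 233 with each embryo scaled to the same total EPKM. For AGO2 with miR-200c minus AGO2 with miR-465c in coding sequences, limma called 17 sequences and 10 members. It called 7 and 3 at a pseudocount of 0.1, 33 and 20 at 10, 4 and 1 with no filter, 32 and 20 with regions above 0 in 50% of embryos, 1 and 0 after scaling, and 3 and 1 with only the 2 groups fitted. EdgeR on recovered edits, added after seeing the data, called 83 and 42. Leaving out the 3 highest miR-465c embryos, also added, gave 2 and 0, and leaving out each gave 4 to 12 and 1 to 7. In 3′ UTRs 9 and 4 were called, then 2 and 1 at a pseudocount of 0.1, 14 and 6 at 10, 1 and 1 with no filter or after scaling, 0 and 0 with 2 groups, 45 and 20 with edgeR, 0 and 0 without the 3 embryos, and 1 and 1 without each. Keeping the repeated columns apart, also added, gave 22 and 12 in coding sequences and 16 and 6 in 3′ UTRs. The 14 members called and the genes named for their change between stages kept their sign under the alternatives run for each. The cause was not tested.

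The replicate block gave 0 calls in both tables. Of the same-numbered pairs of embryos, 2 of 25 in coding sequences and 2 of 25 in 3′ UTRs correlated above 0.1 in their deviations. So did 9 of 23 at the low dose, 6 of 20 at the mid dose, 7 of 21 after miR-465c and 1 and 0 of 20 between stages. The medians ran from -0.0081 to 0.069. At the low dose, at the mid dose and after miR-465c they were 0.069, 0.032 and 0.030. Pairs of unequal number had medians of -0.0043, -0.0017 and -0.0047 there. No label says what an equal number marks, and the main fits did not pair the embryos. Whether such pairs share a day was not tested. For mRNA, where edgeR called 0 genes, the block called 521 genes and 43 members at the mid dose of miR-200c, and DESeq2 called 290 and 21. With no filter edgeR called 1206 genes at the low dose, 1418 with 18 members at the mid dose and 1550 with 1 member after miR-465c. The stage counts stayed within 1.5 times under each alternative run. With 1 to 2 edits in most members, depth limits any single-embryo value.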
